A study of Mus musculus with 24 samples.

Results

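Gene expression in the prefrontal cortex (PFC) at ZT13 was compared between mice under chronic jet lag (CJL) and mice under an unchanged light cycle (Ctrl). The comparison rests on 6 of the series' 24 RNA-seq libraries, the 3 labelled PFC, ZT13 and CJL and the 3 labelled PFC, ZT13 and Ctrl. All were male wild-type C57BL/6J mice, 8 weeks old at the start and entrained for 2 weeks to 12 hours of light and 12 hours of dark. In the CJL group the times of lights on and off were then moved 6 hours earlier every 2 days, and tissue was taken on Day 10. In the Ctrl group the times did not move. ZT counts hours from lights on, so ZT13 is 1 hour into the dark phase, when mice under a steady cycle become active. The last shift before harvest was on Day 8. Whether the internal phase of the CJL mice matched that of the Ctrl mice was not tested. Each group held 3 mice, and the 3 libraries of a group are 3 separate mice. PFC was dissected as the anterior cortex behind the olfactory bulb in the first coronal slice, so neighbouring tissue can be carried along. The other 18 libraries are PFC at ZT1 and the nucleus accumbens (NAc) at both times, and were used only where stated.

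The circadian clock of each cell is a transcriptional loop in which BMAL1 (gene Arntl) and CLOCK switch on the Per and Cry genes, whose proteins switch BMAL1 and CLOCK off. The master clock in the hypothalamus follows light and sets the clocks of other brain regions, partly through the daily rhythm of glucocorticoid hormones, which in mice peaks around the start of the dark phase. Waking and neuronal firing add a further layer in cortex, the immediate early genes, which are transcribed within minutes of activity.

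Expression is given as FPKM, fragments scaled to transcript length and to the mapped fragments of the library, as the authors deposited it. Of 48526 genes listed, 14385 reached 1 FPKM in at least 3 of the 6 libraries and were tested with limma on log2(FPKM + 0.1). Of these, 19 genes reached the minimum only in the CJL libraries and 34 only in the Ctrl libraries. A difference is the mean of log2 values in CJL minus that in Ctrl, with its standard error (SE), and p was adjusted over all 14385 of them by the Benjamini-Hochberg method. No read counts were used, so depth per gene is unknown and the spread between mice is the only error. Across all tested genes the median difference was -0.02, the 5th and 95th percentiles were -0.35 and 0.34, and 96.1% of genes lay within 0.5 of 0.

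The 6 libraries had 14125 to 14370 genes at or above 1 FPKM, and none repeated another. Of 21 cortical layer genes all were detected in every library, with summed levels of 362 to 373 FPKM in CJL and 359 to 364 FPKM in Ctrl. The 13 choroid plexus markers summed to 846 FPKM in CJL replicate 1 and 762 FPKM in Ctrl replicate 1, while the other CJL libraries had 75.2 and 71.0 FPKM and the other Ctrl libraries 167 and 73.2 FPKM. The 12 olfactory bulb markers summed to 77.6 to 105 FPKM in CJL and 60.0 to 88.8 FPKM in Ctrl, and the 12 striatal markers to 214 to 258 FPKM in CJL and 146 to 316 FPKM in Ctrl. Ctrl replicate 1 was the lowest library for both. It also had the lowest summed level of the 15 mature oligodendrocyte markers, 1050 FPKM, against 1494 to 1545 FPKM in the CJL libraries and 1294 and 1551 FPKM in the other Ctrl libraries. Results that rest on Ctrl replicate 1 are therefore given with and without it.

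At an adjusted p under 0.05, 3 of 14385 genes differed, 0.0209% of those tested, all of them higher in CJL. They were Krcc1, Chrm3 and Egr3. At an unadjusted P under 0.05, 829 genes were higher (5.76%) and 1013 lower (7.04%), 12.8% in all, of which 17 and 12 changed more than 2-fold. The split depended on scaling. Of the genes at an unadjusted P under 0.05, 45.0% were higher with the deposited scale, 58.5% after median-of-ratios scaling and 54.0% after quantile normalization. The libraries of the groups did not overlap, with all 3 CJL values above, in 1145 genes (7.96%) and, with all 3 below, in 1449 genes (10.1%).

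The sequences below are the 250 bases before the transcription start of 5 genes on which the results turn, as RefSeq places it on assembly GRCm38.p6, written 5′ to 3′ on the gene's strand. The deposited gene spans begin elsewhere for some of them, so the window of Krcc1 lies inside the deposited span of the gene, and those of Chrm3 and Ciart overlap the 5′ edge of theirs. Krcc1 and Chrm3 are shown as genes past the adjusted threshold, Ciart as the clock gene with the smallest P, Homer1 as an activity-regulated gene, and Nfkbia as the glucocorticoid-responsive gene with the smallest P. The windows were searched on both strands for the E-box CACGTG, bound by BMAL1 and CLOCK, for TGACG, one arm of the cAMP response element bound by CREB, and for the CArG box, the NF-kB site and the glucocorticoid response element. Matches are in capitals. The windows are chr6:71271769-71272018 (plus strand, Krcc1), chr13:10360804-10361053 (minus strand, Chrm3), chr3:95882229-95882478 (minus strand, Ciart), chr13:93303507-93303756 (plus strand, Homer1) and chr12:55492648-55492897 (minus strand, Nfkbia).
Krcc1: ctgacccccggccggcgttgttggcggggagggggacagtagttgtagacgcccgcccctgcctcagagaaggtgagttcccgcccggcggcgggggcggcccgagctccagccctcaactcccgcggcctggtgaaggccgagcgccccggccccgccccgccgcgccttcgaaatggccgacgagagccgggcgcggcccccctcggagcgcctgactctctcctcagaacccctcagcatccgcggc
Chrm3: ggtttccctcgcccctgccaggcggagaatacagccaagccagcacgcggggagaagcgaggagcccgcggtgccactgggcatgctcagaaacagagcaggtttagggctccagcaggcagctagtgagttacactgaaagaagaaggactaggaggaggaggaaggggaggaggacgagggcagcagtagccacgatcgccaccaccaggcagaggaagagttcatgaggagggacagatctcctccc
Ciart: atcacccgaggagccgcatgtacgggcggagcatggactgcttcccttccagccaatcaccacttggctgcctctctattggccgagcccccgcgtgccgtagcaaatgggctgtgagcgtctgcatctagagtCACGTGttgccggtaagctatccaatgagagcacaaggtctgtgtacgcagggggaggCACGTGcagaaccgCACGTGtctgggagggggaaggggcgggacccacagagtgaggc
Homer1: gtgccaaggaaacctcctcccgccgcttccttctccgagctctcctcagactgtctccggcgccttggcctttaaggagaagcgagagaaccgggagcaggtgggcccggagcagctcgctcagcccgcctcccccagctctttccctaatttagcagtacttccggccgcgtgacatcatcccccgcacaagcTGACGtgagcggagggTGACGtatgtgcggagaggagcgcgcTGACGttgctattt
Nfkbia: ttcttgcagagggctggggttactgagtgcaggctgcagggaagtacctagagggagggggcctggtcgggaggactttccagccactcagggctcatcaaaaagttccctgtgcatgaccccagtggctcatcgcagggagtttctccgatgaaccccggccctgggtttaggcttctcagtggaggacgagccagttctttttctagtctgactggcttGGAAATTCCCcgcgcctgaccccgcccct
The window of Ciart holds 3 E-boxes, that of Homer1 3 copies of TGACG and that of Nfkbia 1 NF-kB site. The windows of Krcc1 and Chrm3 hold none of the 5 motifs. Matches of different motifs did not overlap in these windows. Among all 32851 promoter windows of the same length, 6.02% held an E-box, 17.8% TGACG, 1.47% a CArG box, 3.90% an NF-kB site and 0.387% a glucocorticoid response element. A match is a run of letters and not evidence of binding.

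Krcc1, which encodes a lysine-rich coiled-coil protein (ENSMUSG00000053012, chromosome 6, 71271677 to 71285319, mm10), had 7.23, 7.19 and 7.76 FPKM in CJL, against 2.44, 2.73 and 2.69 FPKM in Ctrl. The groups lay far apart, and the difference was 1.46 (SE 0.09, limma adjusted p = 2.69e-05). It stayed past the threshold in all 16 other settings tried, with differences of 1.21 to 1.55. At ZT1 the order of the groups was the opposite. There the 3 CJL libraries had 2.65, 2.50 and 2.89 FPKM, against 7.64, 8.13 and 7.79 FPKM in the 3 Ctrl libraries. Over the 12 PFC libraries the values thus formed 2 levels with nothing between 2.89 and 7.19 FPKM, and each group of 3 mice sat wholly at 1 level. In NAc the values also formed 2 levels, 7 libraries at 3.58 to 4.81 FPKM and 5 at 8.78 to 12.2 FPKM, but each of the 4 groups held libraries of both. The difference at ZT13 in NAc was -0.02 (unadjusted P = 0.954).

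Chrm3 encodes the M3 muscarinic acetylcholine receptor, which signals through Gq and phospholipase C to release calcium from stores (ENSMUSG00000046159, chromosome 13, 9875486 to 10360844). It had 30.3, 30.1 and 29.1 FPKM in CJL, against 18.0, 16.3 and 13.7 FPKM in Ctrl. The CJL mice lay close together and above every Ctrl mouse, with a difference of 0.90 (SE 0.12, limma adjusted p = 0.0452). It passed in 5 of the 16 other settings, whose adjusted p ran from 0.0084 to 0.153, and its difference kept within 0.80 to 0.99. At ZT1 the difference was 0.37 (unadjusted P = 0.00949) and in NAc at ZT13 it was -0.31 (unadjusted P = 0.0373). The difference between the regions at ZT13 was 1.21, with a limma adjusted p of 0.0668.

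Egr3 encodes a zinc finger transcription factor of the immediate early class (chromosome 14, 70077445 to 70080157). It had 50.8, 56.6 and 48.1 FPKM in CJL, against 31.7, 25.8 and 34.0 FPKM in Ctrl. All 3 CJL mice were above all 3 Ctrl mice, and the difference was 0.77 (SE 0.10, limma adjusted p = 0.0452). It passed in 6 of the 16 other settings, with differences of 0.65 to 0.85 and adjusted p from 0.0139 to 0.242. Its order too was the opposite at ZT1, where CJL libraries had 44.6, 37.4 and 42.5 FPKM, against 81.3, 83.3 and 83.4 FPKM in Ctrl libraries. The change of the CJL effect between the times was 1.76 (limma adjusted p = 0.000301). In Ctrl mice Egr3 was therefore far lower at ZT13 than at ZT1, while in CJL mice it was somewhat higher, and the plot of the 3 genes over all PFC groups shows both.

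**Figure D1:**
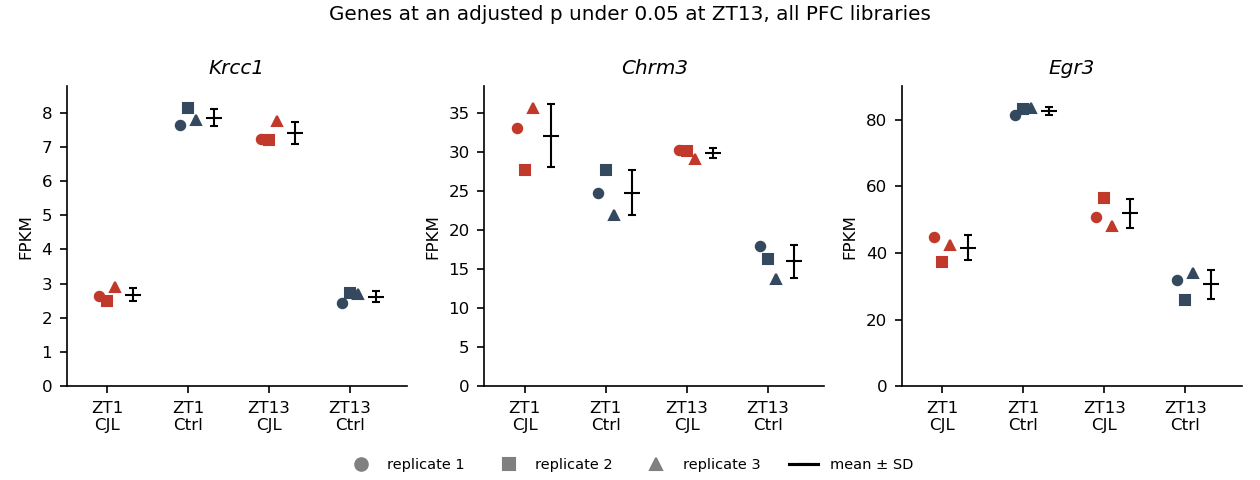
FPKM (y axis, from 0) of Krcc1, Chrm3 and Egr3 in the 12 PFC libraries, by time and lighting (x axis). Symbols are single mice, and the black marks are mean ± SD of 3 mice. At ZT13 the CJL values of all 3 genes lie above the Ctrl values, and for Krcc1 and Egr3 the order at ZT1 is the opposite.

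Egr3 stood among activity-regulated genes that were mostly higher in CJL. Of 53 listed, 50 were tested. Their differences were positive in 41, beside 44.1% of all genes, and had a median of 0.16, beside -0.02 over all genes. At an unadjusted P under 0.05, 12 were higher and 0 lower, beside 5.76% and 7.04% of all genes, and in 13 the CJL mice lay above all Ctrl mice, beside 7.96%. The median was 0.12 without Ctrl replicate 1, and 10 were then higher and 3 lower at that threshold, beside 8.78% and 11.6% of all genes. Only Egr3 rose at the adjusted threshold, beside 0.0209% of all genes. The 23 listed immediate early factors summed to 555 to 593 FPKM in CJL and to 417, 463 and 587 FPKM in Ctrl. The 30 other activity-regulated genes summed to 1050 to 1127 FPKM in CJL and to 914, 928 and 1069 FPKM in Ctrl. For both lists Ctrl replicate 3 thus lay within the CJL range, and only the other Ctrl mice lay below it. In NAc at ZT13 the median of the same genes was 0.02 and in PFC at ZT1 it was 0.15.

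Other members of the Egr family at an unadjusted P under 0.05 included Egr1 and Egr2. Egr1, a transcription factor long used to map active neurons, had 127, 136 and 116 FPKM in CJL, against 73.7, 75.9 and 110.4 FPKM in Ctrl (difference 0.56, SE 0.17, limma adjusted p = 0.297). Egr2 had 5.74, 5.45 and 5.60 FPKM in CJL, against 1.92, 2.33 and 4.29 FPKM in Ctrl (1.03, SE 0.32, limma adjusted p = 0.297). For both genes the groups did not overlap, and Ctrl replicate 3 was the Ctrl mouse nearest to CJL. The same mouse was nearest for Fosl2, an AP-1 subunit, which had 7.61, 7.56 and 6.76 FPKM in CJL, against 5.15, 4.75 and 6.34 FPKM in Ctrl. Fos, Arc and Npas4, named after their values were seen because they are the most used markers of firing, were less uniform. Fos, another AP-1 subunit, had 21.6, 21.8 and 21.2 FPKM in CJL, against 11.5, 17.0 and 22.5 FPKM in Ctrl. Arc, whose protein controls AMPA receptors at the synapse, had 155, 134 and 140.1 FPKM in CJL, against 84.2, 95.6 and 131 FPKM in Ctrl. Arc did not overlap between groups and Fos did, and neither reached an unadjusted P under 0.05 (the smaller was 0.126). Npas4, an activity-dependent factor specific to neurons, differed by 0.04 (SE 0.22).

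Effector genes of activity were also among those at an unadjusted P under 0.05. Homer1, a postsynaptic scaffold that links metabotropic glutamate receptors to calcium stores and has a short activity-induced form, had 59.5, 81.1 and 60.2 FPKM in CJL, against 48.4, 40.2 and 51.5 FPKM in Ctrl. Bdnf, the neurotrophin that supports synaptic plasticity, had 7.74, 9.54 and 7.51 FPKM in CJL, against 6.60, 5.83 and 7.13 FPKM in Ctrl. Dusp4, a phosphatase of MAP kinases, had 5.51, 6.73 and 4.98 FPKM in CJL, against 4.01, 3.04 and 3.64 FPKM in Ctrl. In all 3 genes CJL replicate 2 was the highest library and the groups did not overlap. The differences were 0.51 (SE 0.15), 0.33 (SE 0.13) and 0.67 (SE 0.17) for Homer1, Bdnf and Dusp4, and none passed the adjusted threshold (limma adjusted p 0.297 to 0.337). At ZT1 Homer1 differed by -0.44 (unadjusted P = 0.0159).

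Glucocorticoid-responsive genes showed an uneven pattern, in which several well-known targets were lower in CJL. Of 24 tested, 7 were lower and 2 higher at an unadjusted P under 0.05, beside 7.04% and 5.76% of all genes, and 0 passed the adjusted threshold. With Ctrl replicate 1 left out, 6 were lower and 4 higher, beside 11.6% and 8.78% of all genes. Then 1 lower gene passed the adjusted threshold, beside 0.605%. Their median was -0.05, and it reached 0.00 with a positive sign when exonic length was corrected and Ctrl replicate 1 left out. The 8 members whose CJL mice lay below all Ctrl mice are read against 10.1% of all genes. In NAc at ZT13 the median was -0.26, with 10 lower and 0 higher at an unadjusted P under 0.05, beside 5.24% and 6.69% of all genes there. These NAc libraries may come from the same mice, which the labels do not link.

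Nfkbia encodes the inhibitor that holds NF-kB in the cytoplasm (chromosome 12, 55489411 to 55492647). It had 8.10, 8.25 and 8.96 FPKM in CJL, against 12.3, 13.4 and 13.9 FPKM in Ctrl (difference -0.64, SE 0.11, limma adjusted p = 0.133, and 0.0323 without Ctrl replicate 1). Sgk1, a kinase that regulates ion channels and transporters, had 22.1, 20.1 and 21.0 FPKM in CJL, against 36.0, 38.4 and 26.2 FPKM in Ctrl (-0.65, SE 0.12, limma adjusted p = 0.156). Both genes kept their groups apart, and Sgk1 was also lower in NAc, by -1.16. Arrdc2, an arrestin-domain protein, had 4.01, 3.06 and 3.80 FPKM in CJL, against 5.61, 7.25 and 5.00 FPKM in Ctrl. Fkbp5, a chaperone that lowers the receptor's affinity for hormone, and Ddit4, an inhibitor of mTORC1, are named after their values were seen. Fkbp5 had 6.55, 7.46 and 7.58 FPKM in CJL, against 9.37, 9.45 and 10.7 FPKM in Ctrl. Ddit4 had 13.5, 15.1 and 13.1 FPKM in CJL, against 15.9, 17.4 and 17.0 FPKM in Ctrl. In these 3 genes every CJL mouse was below every Ctrl mouse, with differences of -0.69, -0.45 and -0.27. Hif3a, a hypoxia-inducible factor subunit outside that list, followed the same order with 1.68, 1.02 and 1.77 FPKM in CJL and 3.06, 2.88 and 2.18 FPKM in Ctrl.

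Some members went the other way. Pdk4, a kinase that restrains the entry of pyruvate into mitochondria, had 4.47, 3.58 and 3.74 FPKM in CJL, against 3.02, 2.53 and 1.98 FPKM in Ctrl (difference 0.64, SE 0.19). Tiparp, which the activity-regulated list also holds, had 4.39, 5.06 and 4.66 FPKM in CJL, against 3.78, 3.64 and 3.37 FPKM in Ctrl. Tsc22d3 and Per1, both classical targets, overlapped between the groups, with differences of -0.21 and 0.02. The receptors themselves, Nr3c1 for glucocorticoids and Nr3c2 for mineralocorticoids, also overlapped. Of 7 tested genes of the receptor and CRH list 0 passed an unadjusted P of 0.05, beside 12.8% of all genes. Without Ctrl replicate 1, 1 higher and 1 lower gene did, beside 8.78% and 11.6%.

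**Figure D2:**
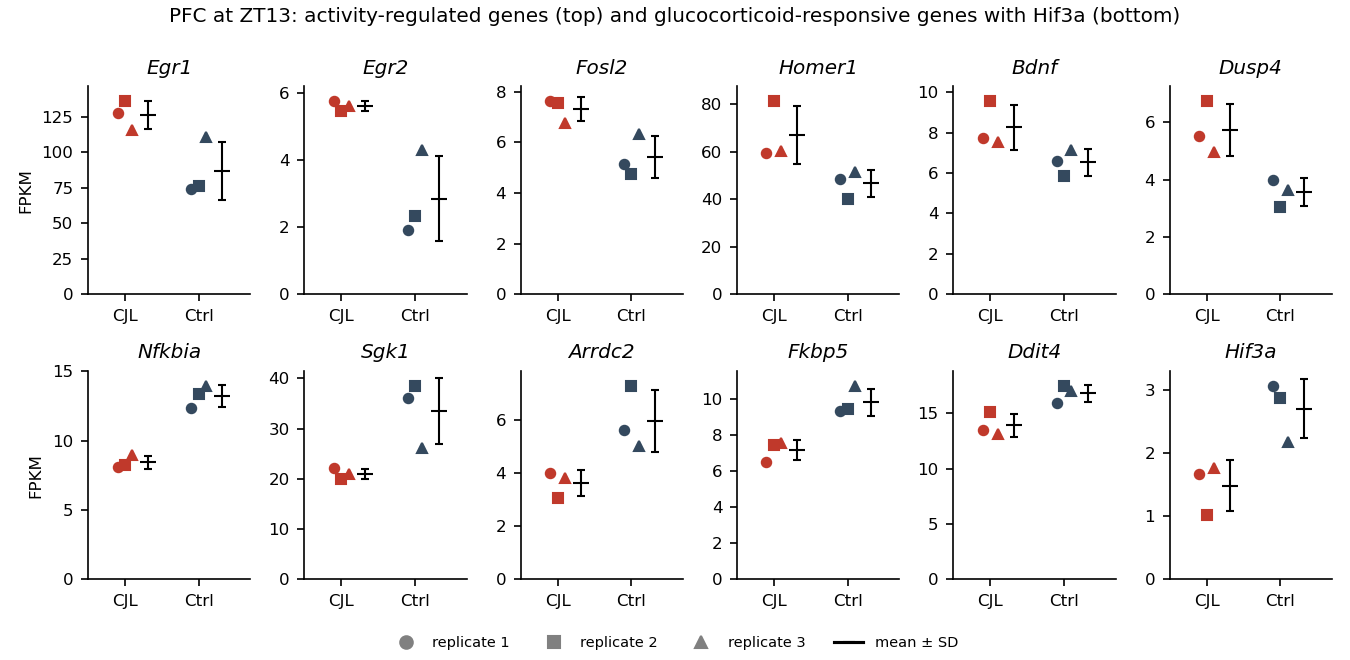
FPKM (y axes, from 0) of 6 activity-regulated genes in the top row and 6 lower genes in the bottom row, 5 of them on the glucocorticoid-responsive list and Hif3a beside them, in the 3 CJL and 3 Ctrl mice at ZT13. Symbols are single mice and black marks mean ± SD. CJL lies above Ctrl in every top panel and below it in every bottom panel, and none of the 12 genes passed the adjusted threshold.

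Clock genes differed little in their median, with members on both sides of 0. Of 25 listed, 24 were tested, with a median difference of 0.03 and a range of -0.53 to 0.46. An unadjusted P under 0.05 was reached by 3 higher and 2 lower genes, beside 5.76% and 7.04% of all genes, and 0 passed the adjusted threshold. In 6 the CJL mice lay above all Ctrl mice and in 3 below them, beside 7.96% and 10.1% of all genes.

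Among the activators, Arntl had 12.0, 14.1 and 12.0 FPKM in CJL, against 10.1, 10.8 and 11.4 FPKM in Ctrl (difference 0.24, SE 0.08, unadjusted P = 0.0123). The groups did not overlap, and NAc gave 0.25 for the same gene. Its partners Clock and Npas2 overlapped between groups, at -0.03 and 0.03. Nr1d1, the REV-ERB alpha repressor of Arntl, had 48.1, 41.3 and 48.3 FPKM in CJL, against 49.8, 52.5 and 51.0 FPKM in Ctrl, a difference of -0.16 with an SE of 0.12. Its CJL values were all below its Ctrl values, while those of Nr1d2, Rora and Rorb overlapped between groups.

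Among the repressors, Ciart, which encodes the CHRONO protein that binds BMAL1, had 14.7, 12.7 and 16.6 FPKM in CJL, against 20.8, 24.2 and 18.6 FPKM in Ctrl. Each CJL mouse was below each Ctrl mouse, and the difference was -0.53 (SE 0.13, unadjusted P = 0.00162, limma adjusted p = 0.297). At ZT1 it was 0.35 (unadjusted P = 0.019), and the change between the times had an unadjusted P of 0.000466 and an adjusted p of 0.0684. Bhlhe40 (DEC1), a repressor that competes at E-boxes, had 68.5, 72.6 and 65.1 FPKM in CJL, against 53.8, 51.7 and 58.5 FPKM in Ctrl (0.33, SE 0.14). Its groups did not overlap. Per1, Per2 and Per3 differed by 0.02, 0.10 and -0.09, each within 1 SE of 0. Cry1 had 10.7, 9.92 and 10.3 FPKM in CJL, against 8.88, 9.33 and 9.33 FPKM in Ctrl (0.16, SE 0.08, unadjusted P = 0.0694).

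Of the output factors of the PAR bZIP family, Dbp had 56.7, 40.2 and 52.7 FPKM in CJL, against 58.8, 66.7 and 64.8 FPKM in Ctrl (difference -0.36, SE 0.16, unadjusted P = 0.0398). All CJL mice were below all Ctrl mice, CJL replicate 2 by the widest margin. Tef had 128, 101 and 122 FPKM in CJL, against 54.9, 127 and 113 FPKM in Ctrl. Its difference of 0.33 rested on Ctrl replicate 1 and was -0.04 without it. Fbxl21, a ubiquitin ligase subunit that acts on cryptochromes, had 1.89, 1.85 and 2.04 FPKM in CJL, against 1.49, 1.40 and 1.23 FPKM in Ctrl (0.46, SE 0.12, unadjusted P = 0.00275). Its levels were close to the minimum of 1 FPKM.

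**Figure D3:**
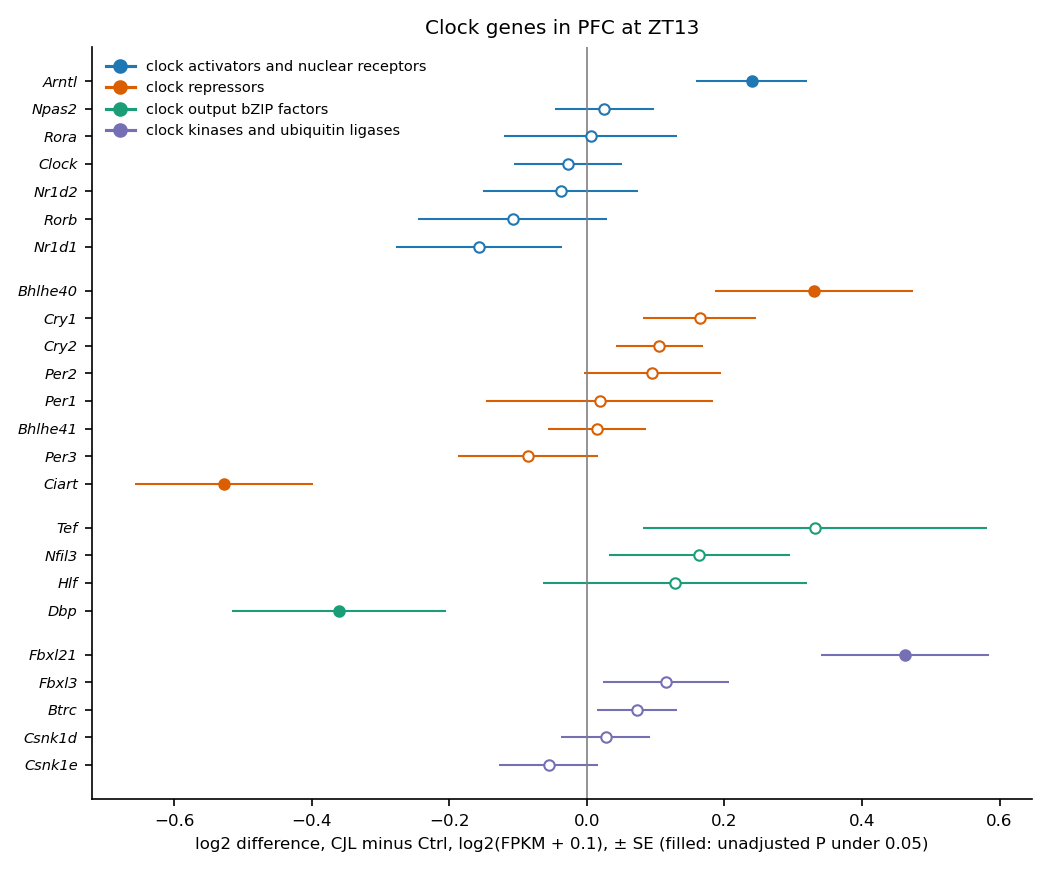
Difference between CJL and Ctrl (x axis, log2 units, bars ± SE) for each of the 24 clock genes tested in PFC at ZT13, grouped by role and ordered by value. Filled points mark the 5 genes at an unadjusted P under 0.05, Arntl, Bhlhe40 and Fbxl21 on the positive side and Ciart and Dbp on the negative side.

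Chrm3 was the member of the acetylcholine list with the smallest P. Of 21 genes listed, 11 were tested and 1 passed the adjusted threshold, beside 0.0209% of all genes. At an unadjusted P under 0.05, 3 were higher and 0 lower, beside 5.76% and 7.04% of all genes. Without Ctrl replicate 1 the counts were 3 higher and 1 lower, beside 8.78% and 11.6%. Of the higher ones 2 then passed the adjusted threshold, beside 1.15%. The other muscarinic receptors, named after their values were seen, had smaller differences. Chrm1, the main muscarinic receptor of cortical pyramidal neurons, had 34.4, 33.7 and 28.8 FPKM in CJL, against 34.7, 31.3 and 33.4 FPKM in Ctrl. Chrm2 had 2.67, 3.09 and 2.98 FPKM in CJL, against 2.39, 2.28 and 2.38 FPKM in Ctrl (difference 0.30, SE 0.18). Chrm4 differed by -0.03 and Chrm5 was below 0.163 FPKM throughout. Chrna7, the subunit of the homomeric alpha7 nicotinic receptor, had 4.79, 4.71 and 5.28 FPKM in CJL, against 4.93, 3.38 and 2.79 FPKM in Ctrl (0.44, SE 0.17). Here Ctrl replicate 1 lay within the CJL range, and without it the difference was 0.66 (limma adjusted p = 0.0323). Lypd6, a membrane-anchored modulator of nicotinic receptors, had 2.18, 11.2 and 10.5 FPKM in CJL, against 2.95, 1.45 and 1.08 FPKM in Ctrl, so 2 CJL mice were high and the third was within the range of Ctrl.

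Downstream of Gq the list of 22 tested phospholipase C and calcium store genes had a median of -0.02, and at an unadjusted P under 0.05 the counts were 3 higher and 1 lower, beside 5.76% and 7.04% of all genes. Without Ctrl replicate 1 they were 6 higher and 2 lower, beside 8.78% and 11.6%. In each direction 1 gene was then past the adjusted threshold, beside 1.15% and 0.605%. Gnaq, the Gq alpha subunit itself, had 40.6, 45.1 and 43.2 FPKM in CJL, against 41.2, 34.6 and 31.8 FPKM in Ctrl (difference 0.27, SE 0.09). Itpr2, a receptor for inositol trisphosphate, had 2.87, 2.44 and 2.80 FPKM in CJL, against 2.38, 1.81 and 1.68 FPKM in Ctrl. Ryr3, a calcium release channel, had 2.84, 3.08 and 3.58 FPKM in CJL, against 2.93, 5.27 and 4.88 FPKM in Ctrl. Each of these values is closest to CJL in Ctrl replicate 1.

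Channels and synaptic genes had small medians and a few larger members. The 50 tested potassium channel genes had a median of 0.10, and 7 higher and 2 lower ones reached an unadjusted P under 0.05, beside 5.76% and 7.04% of all genes. Without Ctrl replicate 1, 16 were higher and 3 lower, beside 8.78% and 11.6%, and 3 higher ones passed the adjusted threshold, beside 1.15%. Kcna1, the Kv1.1 channel that shapes axonal firing, had 23.7, 25.0 and 24.6 FPKM in CJL, against 23.2, 15.1 and 12.7 FPKM in Ctrl (difference 0.57, SE 0.17, and 0.82 with a limma adjusted p of 0.00785 without Ctrl replicate 1). Kcnip4, a subunit of A-type potassium channels, had 5.18, 25.1 and 5.86 FPKM in CJL, against 25.9, 27.8 and 24.8 FPKM in Ctrl. CJL replicate 2 thus sat with the Ctrl mice, and the other CJL mice far below them. Of 20 postsynaptic scaffold genes 3 were higher and 0 lower, beside the same shares of all genes, with a median of 0.12. When Ctrl replicate 1 was left out, 8 were higher and 1 lower, beside 8.78% and 11.6%, with a median of 0.20. Of the higher ones 1 passed the adjusted threshold, beside 1.15% of all genes. Dlgap2, one of these scaffolds, had 17.1, 15.3 and 16.1 FPKM in CJL, against 17.1, 11.3 and 9.80 FPKM in Ctrl. Glutamate receptors (24 tested, 1 higher, 1 lower) and GABA and glycine synapse genes (23 tested, 1 higher, 0 lower) had medians of 0.06 each. Serotonin, dopamine and noradrenaline receptors had 0 of 16 at an unadjusted P under 0.05. All of these counts stand beside 5.76% and 7.04% of all genes. Without Ctrl replicate 1, glutamate receptors had 5 higher and 1 lower, and GABA and glycine synapse genes 3 higher and 0 lower. The monoamine receptors had 2 higher and 1 lower. Beside these counts stand 8.78% and 11.6% of all genes. Of the higher monoamine receptors 1 was past the adjusted threshold, beside 1.15% of all genes.

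Of the neurotrophin receptors, Ntrk2, which encodes the BDNF receptor TrkB, had 98.4, 97.5 and 91.8 FPKM in CJL, against 92.1, 67.7 and 68.0 FPKM in Ctrl (difference 0.35, SE 0.10, and 0.50 with a limma adjusted p of 0.0084 without Ctrl replicate 1). Among 17 neuropeptide and interneuron genes 2 were lower and 0 higher at an unadjusted P under 0.05, beside 7.04% and 5.76% of all genes. Their median of -0.08 turned to 0.02 when exonic length was corrected. There were 4 lower ones without Ctrl replicate 1, beside 11.6% of all genes. Cort, a peptide related to somatostatin, had 5.85, 5.19 and 5.73 FPKM in CJL, against 7.61, 8.71 and 8.07 FPKM in Ctrl, without overlap (-0.53, SE 0.14, limma adjusted p = 0.297).

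Astrocyte markers were mostly higher in CJL. The 19 tested had a median of 0.20, 16 had a positive difference, and an unadjusted P under 0.05 was reached by 7 higher and 0 lower ones, beside 5.76% and 7.04% of all genes. In 5 of them the groups did not overlap, beside 7.96% of all genes. Without Ctrl replicate 1, 11 were higher at an unadjusted P under 0.05, beside 8.78% of all genes, and the median was 0.24. Of these, 3 were past the adjusted threshold, beside 1.15% of all genes. In tissue of mixed cells, more cells of a type and more RNA per cell cannot be told apart. The summed level of the 19 markers was 1251 to 1374 FPKM in CJL and 1059 to 1297 FPKM in Ctrl, so Ctrl replicate 1 lay within the CJL range and the other Ctrl mice below it.

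Etnppl, an enzyme that breaks down phosphoethanolamine, had 7.14, 7.85 and 6.52 FPKM in CJL, against 4.86, 4.60 and 3.96 FPKM in Ctrl (difference 0.67, SE 0.12, limma adjusted p = 0.133). Gja1, the gap junction protein connexin 43, had 70.2, 62.2 and 67.8 FPKM in CJL, against 60.3, 49.4 and 48.7 FPKM in Ctrl (0.34, SE 0.09). Ppp1r3c, which directs glycogen synthesis and is high in astrocytes, had 17.6, 16.3 and 16.9 FPKM in CJL, against 13.1, 10.7 and 10.0 FPKM in Ctrl (0.59, SE 0.11, limma adjusted p = 0.133, and 0.0115 without Ctrl replicate 1). None of these 3 genes overlapped between groups, and Ctrl replicate 1 was the highest Ctrl mouse in each. Slc14a1, a urea transporter, had 3.80, 3.07 and 3.66 FPKM in CJL, against 2.16, 2.36 and 1.89 FPKM in Ctrl. Cd38, which consumes NAD, had 1.83, 2.05 and 2.32 FPKM in CJL, against 1.02, 1.26 and 1.09 FPKM in Ctrl. Slc16a1, the monocarboxylate transporter MCT1, had 10.9, 11.7 and 10.2 FPKM in CJL, against 8.27, 7.78 and 7.87 FPKM in Ctrl (0.45, SE 0.07, limma adjusted p = 0.122). These 3 genes also kept their groups apart. Etnppl, Slc14a1 and Cd38 had positive differences in NAc too, of 0.85, 0.45 and 0.57, while at ZT1 in PFC Etnppl differed by -0.87.

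Genes of the vessel wall did not move together. The 14 endothelial markers had a median of 0.14, and an unadjusted P under 0.05 was reached by 3 with higher and 1 with lower levels, beside 5.76% and 7.04% of all genes. Kdr, the main VEGF receptor, had 4.31, 3.49 and 3.25 FPKM in CJL, against 2.39, 1.78 and 2.13 FPKM in Ctrl (difference 0.78, SE 0.13, limma adjusted p = 0.133). Cldn5, the tight junction protein of the blood-brain barrier, had 29.0, 27.3 and 23.8 FPKM in CJL, against 17.5, 17.1 and 21.7 FPKM in Ctrl (0.51, SE 0.10). Slc2a1, the glucose transporter GLUT1, went the other way, with 30.7, 28.9 and 36.0 FPKM in CJL, against 45.0, 42.3 and 37.8 FPKM in Ctrl (-0.39, SE 0.11). In all 3 genes the groups did not overlap. The summed endothelial level was 215 to 217 FPKM in CJL and 201 to 236 FPKM in Ctrl.

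All 15 mature oligodendrocyte markers had a positive difference, with a median of 0.26, and 4 were higher at an unadjusted P under 0.05, beside 5.76% of all genes. Without Ctrl replicate 1 the median was 0.11 and 0 were higher at that threshold, beside 8.78% of all genes. Mal, a myelin proteolipid, had 104, 108 and 101 FPKM in CJL, against 62.4, 92.8 and 80.1 FPKM in Ctrl. Gpr17, a receptor of committed oligodendrocyte precursors, had 14.0, 13.1 and 13.4 FPKM in CJL, against 10.3, 10.8 and 10.4 FPKM in Ctrl, with little spread in either group (difference 0.36, SE 0.08, limma adjusted p = 0.274). The 13 precursor markers tested were mixed, with 8 positive and 5 negative differences and a median of 0.09. An unadjusted P of 0.05 was passed by 2 positive and 1 negative, beside 5.76% and 7.04% of all genes. Without Ctrl replicate 1 the counts were 3 and 1, beside 8.78% and 11.6%, and the median was 0.01. Olig2, of the same lineage, went the other way from Gpr17, with differences of -0.30 to -0.18 over 17 settings. Microglia markers were split, 3 higher and 1 lower of 15, beside 5.76% and 7.04% of all genes.

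Cd74 and H2-Aa act in antigen presentation on MHC class II and were among the genes with small P. Cd74, the invariant chain, had 3.11, 2.12 and 2.61 FPKM in CJL, against 4.33, 4.24 and 5.86 FPKM in Ctrl (difference -0.86, SE 0.18, limma adjusted p = 0.236). H2-Aa, a class II chain, had 1.40, 1.24 and 1.11 FPKM in CJL, against 1.88, 1.92 and 2.34 FPKM in Ctrl (-0.67, SE 0.15). Neither overlapped between groups. In NAc at ZT13 the same genes differed by -1.30 and -1.46. Levels near 1 FPKM in H2-Aa leave it close to the minimum.

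Other genes with small P included Psen2, the presenilin of gamma-secretase, with 5.37, 5.17 and 4.97 FPKM in CJL, against 6.50, 7.15 and 8.00 FPKM in Ctrl (difference -0.47, SE 0.09, limma adjusted p = 0.147). Dgke, a kinase that removes diacylglycerol, had 11.3, 13.1 and 12.3 FPKM in CJL, against 20.1, 19.1 and 17.5 FPKM in Ctrl (-0.62, SE 0.12). Ctnnd1, the p120 catenin of cell junctions, had 20.8, 19.9 and 19.4 FPKM in CJL, against 16.2, 14.7 and 15.9 FPKM in Ctrl (0.36, SE 0.07). In each the groups were separate. Larger positive differences of 1.43 in Rpe65 and 1.14 in Itgav came with uneven Ctrl mice. Rpe65, a retinoid isomerase of the visual cycle, had 2.88, 3.32 and 2.72 FPKM in CJL, against 1.38, 1.52 and 0.511 FPKM in Ctrl. Itgav, the integrin alpha V subunit, had 18.8, 18.5 and 19.3 FPKM in CJL, against 7.69, 5.40 and 14.7 FPKM in Ctrl.

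Nuclear genes for the respiratory chain and for cytosolic ribosomes were slightly lower as groups. Of 74 oxidative phosphorylation subunits 66 had a negative difference, beside 55.9% of all genes, 8 were lower and 0 higher at an unadjusted P under 0.05, beside 7.04% and 5.76%, and the median was -0.12. Of 79 ribosomal protein genes 76 had a negative difference, 9 were lower and 0 higher, and the median was also -0.12. Without Ctrl replicate 1, 34 respiratory chain genes were lower, 5 of them past the adjusted threshold, and 45 ribosomal protein genes, 3 of them past it, beside 11.6% and 0.605% of all genes. Both medians were then -0.21. With exonic length corrected as well, 2 respiratory chain and 0 ribosomal protein genes were lower past the adjusted threshold, beside 19 of all genes. With it corrected and all libraries kept, 6 and 5 were lower at an unadjusted P under 0.05, beside 839 of all genes. Ndufa6, a subunit of complex I, had 55.1, 55.7 and 46.1 FPKM in CJL, against 56.3, 73.0 and 79.5 FPKM in Ctrl. Rpl11, a protein of the large ribosomal subunit, had 107, 109.6 and 102 FPKM in CJL, against 108, 143 and 169 FPKM in Ctrl. In both genes Ctrl replicate 1 was next to the CJL mice and Ctrl replicate 3 was highest. Ribosomal protein genes have many near-identical copies in the genome, so the split of their reads is uncertain. The mitochondrial genome's own 13 protein genes centred on -0.03, or 0.08 with exonic length corrected. Of these 0 passed an unadjusted P of 0.05, beside 12.8% of all genes. In 5 the CJL mice lay below all Ctrl mice and in 1 above them, beside 10.1% and 7.96% of all genes.

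These transcripts are short, and the differences followed exonic length. An exonic length was found for 14338 of the tested genes (99.7%), and these were ordered and cut into 5 bins of equal size. The median difference was -0.10 in the shortest bin (51 to 2054 bases), then -0.05, -0.02 and 0.01, and 0.03 in the longest bin (7428 to 41324 bases). At an unadjusted P under 0.05, 75 genes of the shortest bin were higher and 283 lower, while in the longest bin 312 were higher and 128 lower. By library, deviations were taken from each gene's median over the 12 PFC libraries of both times. The median deviation of the longest bin, minus that of the shortest, was -0.01, 0.00 and 0.02 in the CJL mice at ZT13. In the Ctrl mice at ZT13 it was 0.01, -0.13 and -0.26. Ctrl replicates 2 and 3 therefore stood apart from Ctrl replicate 1 and from CJL. With the length pattern of each library removed, the median of both the respiratory chain and the ribosomal list was -0.04, that of the astrocyte markers 0.24 and that of the activity-regulated genes 0.19.

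**Figure D4:**
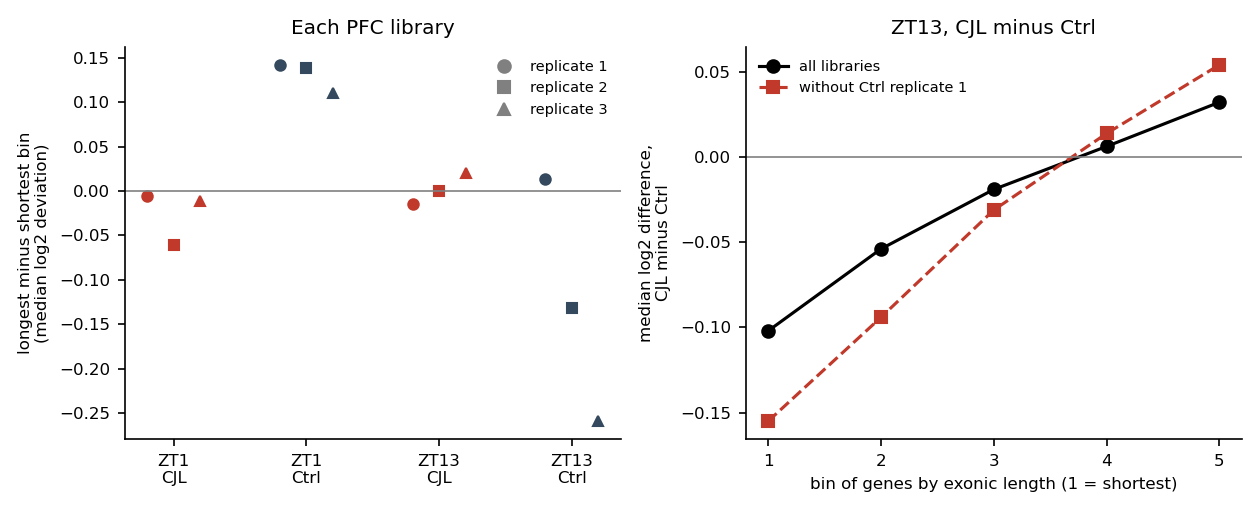
Left, for each PFC library, the median deviation from gene medians over all PFC libraries in the longest bin of genes by exonic length minus that in the shortest bin (log2 units). Right, the median difference between CJL and Ctrl at ZT13 in each of 5 bins, with all libraries and without Ctrl replicate 1. The 3 CJL mice at ZT13 lie near 0 on the left and Ctrl replicates 2 and 3 at -0.13 and -0.26, and the line on the right climbs with length.

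Leaving out Ctrl replicate 1 changed the count of calls more than any other library. Without it 253 genes passed the adjusted threshold (1.76%), 166 higher (1.15%) and 87 lower (0.605%), among them the 3 genes called with it. All 253 had the same sign with it, and 232 of them were at an unadjusted P under 0.05 there. In 220 of them (87.0%) Ctrl replicate 1 lay nearer the CJL mean than the mean of the other Ctrl mice, beside 61.2% of all genes, and in 98 it lay inside the CJL range. Such a position by itself lets a call appear when the library is left out. Shc3, Atp2b2 and Agpat3, named after their values were seen as named genes with the smallest P after Krcc1, show the form. Shc3, a neuronal adaptor of receptor tyrosine kinases, had 21.3, 19.3 and 19.9 FPKM in CJL, against 19.2, 8.69 and 7.50 FPKM in Ctrl. Atp2b2, a calcium pump of the plasma membrane, had 127, 124 and 109 FPKM in CJL, against 119, 67.9 and 62.3 FPKM in Ctrl. Agpat3, an acyltransferase of phospholipid synthesis, had 79.7, 73.6 and 77.7 FPKM in CJL, against 78.9, 51.1 and 45.9 FPKM in Ctrl. In each of these genes Ctrl replicate 1 was next to or within the CJL range and Ctrl replicates 2 and 3 were low. Median exonic length was 8031 bases in the 166 higher genes and 2151 bases in the 87 lower genes, against 4210 bases over all. With the length pattern removed as well, 117 genes passed, 98 higher and 19 lower, and 107 of them were among the 253. Ctrl replicate 1 was also the Ctrl library with high choroid plexus and low striatal and oligodendrocyte markers, and their part in these calls was not tested.

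**Figure D5:**
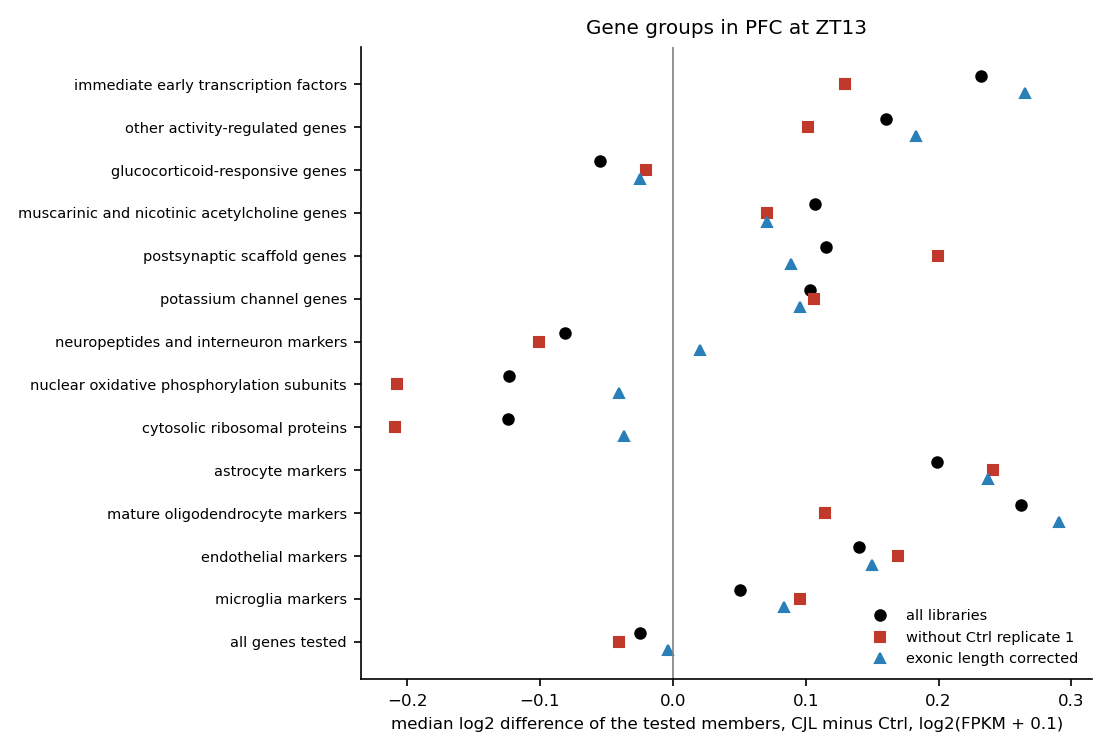
Median difference between CJL and Ctrl at ZT13 (x axis, log2 units) of the tested members of 13 gene groups and of all genes tested, with all libraries, without Ctrl replicate 1, and with the exonic length pattern of each library removed. Astrocyte and activity-regulated genes lie right of 0 in all 3, and the respiratory chain and ribosomal groups move from -0.12 to -0.04 with the length correction.

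The CJL effect at ZT13 was set against that at ZT1 in the same fit. It differed at an adjusted p under 0.05 in 15 genes (0.104%), 5 with a more positive (0.0348%) and 10 with a more negative effect at ZT13 (0.0695%). Beside Krcc1 and Egr3 these included Etnppl (1.54, limma adjusted p = 0.00336) and Actr3b, a homologue of the actin-related ARP3 subunit (-0.54, limma adjusted p = 0.0168). Actr3b had 45.2, 45.5 and 45.4 FPKM in CJL, against 52.9, 55.8 and 54.6 FPKM in Ctrl at ZT13, and the opposite order at ZT1. Between regions at ZT13 the CJL effect differed in 0 genes at an adjusted p under 0.05 by limma, and in 1906 at an unadjusted P under 0.05 (13.2%). PFC at ZT1 had 237 genes past the adjusted threshold (1.65%) and NAc at ZT13 had 4 (0.0278%). Without the 3 PFC libraries high in choroid plexus or olfactory bulb markers, 53 genes passed at ZT13 (0.368%).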

How the data were processed

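RNA-seq measured polyadenylated RNA of PFC and NAc from 3 mice per time and lighting. The authors aligned the reads to mm10 and deposited FPKM of 48526 genes per library, scaled by them for depth and gene length, with coordinates. Their processing notes name HISAT2, StringTie, DESeq2 and FastQC 0.11.9. Replicates were not pooled. The authors also deposited 8 tables of their own fold changes and p-values, which were not used. Depth per gene cannot be had from FPKM, so precision rests on the spread between mice.

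Linear models of log2(FPKM + 0.1) were moderated across genes, with a mean trend, by limma 3.58.1 under R 4.3.3. The 12 PFC libraries shared 1 fit, and all 24 were fitted together for the comparison of regions. Tests were two-sided, with Benjamini-Hochberg adjustment over 14385 genes. The code was tested on simulated data before use. Python 3.11.15 with numpy 2.4.6 and pandas 2.3.3 made the tables, and matplotlib 3.10.9 drew the plots. Exonic lengths came from GENCODE M21 and promoters from RefSeq on GRCm38.p6, where 107 of 138 named genes had an entry.

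Genes were named if they passed an adjusted p of 0.05, if they were among the 12 rises and 12 falls of smallest P or the 8 rises and 8 falls of largest difference (unadjusted P under 0.05, groups not overlapping, higher mean of at least 2 FPKM, established names only), if they were clock genes, or if they were among the up to 4 members of smallest P of another list at an unadjusted P under 0.05. Not all of them are printed. The 43 lists, the members and the rule were chosen with earlier results of these data known.

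Alternatives were a pseudocount of 1, no filter, a filter over all libraries of the fit, median-of-ratios scaling, quantile normalization, fits to the compared groups alone, the replicate number as a block, and leaving out single libraries. Chosen after seeing the data were leaving out 3 PFC libraries with choroid plexus or olfactory bulb markers over 2 log2 units above the PFC median, a correction for exonic length in 20 bins of genes, and that correction without Ctrl replicate 1. CJL and Ctrl libraries of one number came from different mice and were not paired.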

Additional observations from a re-analysis of the deposited data

Results flagged for a closer look

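In 15 genes the CJL effect in PFC differed between ZT13 and ZT1 by limma's test of the difference itself, at an adjusted p under 0.05. Values are the log2 effect of CJL at ZT13 minus that at ZT1. The effect was more positive at ZT13 in Krcc1 by 2.98, in Egr3 by 1.76, in Etnppl by 1.54 and in Camk1g, a calcium and calmodulin dependent kinase, by 0.56 (limma adjusted p = 0.0479). Krcc1, Egr3 and Etnppl had a positive effect at ZT13 and a negative one at ZT1. In mt-Atp6, a subunit of ATP synthase encoded by the mitochondrial genome, the difference was 2.98, with an effect of -0.14 at ZT13 and -3.12 at ZT1. At ZT13 mt-Atp6 had 769.8, 741 and 768 FPKM in CJL, against 806, 874 and 835 FPKM in Ctrl, so its difference between the times rests on the ZT1 libraries. There it had 704, 672 and 706 FPKM in CJL, against 4605, 7863 and 6119 FPKM in Ctrl. Single NAc libraries were also high, with 6711 FPKM in ZT1 Ctrl replicate 1, 4864 FPKM in ZT1 CJL replicate 3 and 6254 FPKM in ZT13 Ctrl replicate 1. The other NAc libraries had 755 to 1288 FPKM.

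The effect was more negative at ZT13 in Ddit4 by -0.95, in Actr3b by -0.54 and in Asb11, a substrate receptor of a ubiquitin ligase, by -1.07. Among mitochondrial genes the same held for Uqcr11 (-0.75) and Uqcc2 (-0.95), a subunit and an assembly factor of complex III, and for Ndufa13, of complex I (-0.78). The remaining genes were Lage3 (-1.10), Gm9843 (-0.82), Gm42738 (-1.60) and 2610306M01Rik (-0.96). These names fall outside the naming rule, apart from Krcc1, Egr3, Etnppl, Actr3b, Asb11 and Ndufa13, and were taken because the test named them. The ZT13 and ZT1 groups are different mice. They also differed in the length pattern. The longest bin minus the shortest was 0.14, 0.14 and 0.11 in the ZT1 Ctrl libraries. In the ZT1 CJL libraries it was -0.01, -0.06 and -0.01. At an unadjusted P under 0.05, 57 of 74 oxidative phosphorylation subunits had a more negative effect at ZT13, beside 1941 of all 14385 genes. With exonic length corrected, 5 genes passed the adjusted threshold in place of 15. The cause was not tested.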

How the results depend on the processing

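The count of genes past the adjusted threshold at ZT13, 3 with all libraries, was 1 after median-of-ratios scaling, without a filter, after quantile normalization and with exonic length corrected, 53 without the 3 libraries high in choroid plexus or olfactory bulb markers, and 117 with length corrected and Ctrl replicate 1 left out. With each library left out in turn it ran from 1 to 253. The 15 genes whose CJL effect differed between the times became 8 after median-of-ratios scaling, 8 without a filter, 5 with length corrected, 84 without the 3 libraries, and 4 to 804 with a library left out, the highest without Ctrl replicate 1 of ZT13. For the regions, 0 became 1 after median-of-ratios scaling, 3 without a filter, 1 after quantile normalization, 51 without the 3 libraries, and 0 to 89 with a library left out. Genes higher at an unadjusted P, 829, ran from 468 to 1263 with a library left out and were 1361 with length corrected and Ctrl replicate 1 left out. Genes lower, 1013, ran from 613 to 1674, and were 1570 without a filter and 1643 without the 3 libraries.

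With a term for the replicate number (the replicate block) 1 gene passed at ZT13 and 4 for the difference between times. Deviations of CJL and Ctrl libraries of the same number correlated across genes at 0.0434, -0.0284 and -0.0513. Pairs of different numbers gave -0.0573 to 0.0863. A correlation over all genes cannot tell whether libraries of one number were dissected or processed together, and this was not tested. Both ZT13 libraries numbered 1 were high in choroid plexus markers. No named gene at an unadjusted P under 0.05 changed sign in any setting tried at ZT13. Other genes did, among them Clock, Per1 and Tef, whose 0.33 became -0.04 without Ctrl replicate 1, and so did the glucocorticoid-responsive, neuropeptide and mitochondrial genome medians. Of the 16 alternatives at ZT13, Krcc1 stayed past the threshold in all, Chrm3 in 5 and Egr3 in 6. The cause of these changes was not tested. With 3 mice a group the median SE was 0.12 log2 units, and without counts the counting error of genes near 1 FPKM is unknown.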
